A study of Rattus norvegicus with 22 samples.

Results

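The part of the liver transcriptome described here is a set of 5 genes of the circadian clock and its output, Npas2, Cry2, Wee1, Nampt and Rgs16. They were taken by gene name from the larger of the deposited tables, which lists 1365 rows for male rats, and each gene had 1 row there. Livers came from Wistar rats at postnatal day 110 born to mothers on either a control or an obesogenic diet (MO, for maternal obesity), and RNA was sequenced from 1 library per animal. The males comprised 6 control and 5 MO animals, and the females, in a table of 69 rows, 6 control and 5 MO animals. None of the 5 genes was among the female rows, so their levels in females are not analysed here. The offspring's own diet, the litters, the hour of tissue collection and the feeding state are not stated in the labels. Both tables hold rows already selected for a difference between the maternal diets, and the 5 genes were chosen by their listed log2 difference and its p-value between MO and control males. Their levels by maternal diet are therefore given as a description, with no test.

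The mammalian clock is a feedback loop of transcription. CLOCK, or its relative NPAS2, pairs with BMAL1 and binds E-box sequences, and among the genes it activates are those for the PER and CRY proteins, which then repress the pair. REV-ERB and ROR receptors compete for a second kind of element and drive the rhythm of Bmal1 and Npas2 themselves. In liver this loop sets the daily rhythm of many output genes, among them Wee1, the kinase that holds back entry into mitosis, and Nampt, which sets the pace of NAD salvage from nicotinamide. Rgs16, which shortens signalling through G protein-coupled receptors, is also known to cycle in liver and to respond to feeding.

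Promoter sequences are shown for Cry2 and Rgs16. The Cry2 window held a letter match to an element through which clock factors act, and the Rgs16 window only to the half-site of such an element. The RefSeq promoter table (build GRCr8) matched 3 of the 5 genes, Npas2, Cry2 and Rgs16. In the 250 bases before the start site both strands were searched for CACGTG (E-box), CACGTT (the E-box variant), AGGTCA (the half-site read by ROR and REV-ERB receptors), TTATGTAA (D-box) and TGACG (a core of the cyclic AMP element). Cry2 held the E-box variant as AACGTG, 212 to 207 bases before the start site, and Rgs16 held the receptor half-site as TGACCT, 192 to 187 bases before it. Over all 33469 promoters of the table these motifs occurred in 4.07% and 14.1%, the E-box itself in 5.59%, the D-box in 0.828% and the cyclic AMP core in 18.2%. The Npas2 window held none of these letters. It lies inside the span that RefSeq gives for the gene itself, which begins further upstream, and is not shown. A match is a string of letters and not a shown binding site. In the lines below, written 5′ to 3′, capitals mark the match. The Cry2 stretch is chr3:98860438-98860687 on the minus strand and the Rgs16 stretch is chr13:68437870-68438119 on the plus strand.
Cry2: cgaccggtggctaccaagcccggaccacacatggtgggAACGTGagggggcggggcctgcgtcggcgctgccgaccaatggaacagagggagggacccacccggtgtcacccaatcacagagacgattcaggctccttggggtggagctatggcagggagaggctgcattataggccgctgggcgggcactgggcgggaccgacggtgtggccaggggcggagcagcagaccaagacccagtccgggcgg
Rgs16: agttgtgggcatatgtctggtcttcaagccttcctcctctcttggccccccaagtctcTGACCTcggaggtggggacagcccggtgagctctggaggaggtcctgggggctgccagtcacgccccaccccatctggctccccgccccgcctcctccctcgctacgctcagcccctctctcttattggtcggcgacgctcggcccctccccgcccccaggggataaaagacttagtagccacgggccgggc

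Values are in RPM, the reads of a transcript after every library was brought to the same total. Library size as read from the values was 7890000 to 11170000 reads in control males and 10530000 to 11590000 in MO males, so depth was higher on the whole in MO animals. The table is one-sided, with 1317 rows lower and 48 higher in MO males and a median difference of -0.58 on the log2(RPM + 1) scale. A difference is therefore also given after each library was centred on its own median over the rows, which moves every difference up by about that amount. These rows were selected for a difference and most were lower, so the medians carry that difference themselves. The centred values place a gene relative to the listed rows and are no check of how the libraries were scaled. Control males 1 and 5 stood apart in Rmrp, an RNA without a poly(A) tail, at 1.20 and 1.52 RPM against 36.9 to 51.2 RPM in the other controls and 1.71 to 3.11 RPM in MO males. For the 5 genes each difference is accompanied by its value without these libraries and with these alone as controls, and for the other listed genes these values are summarised after them. These comparisons were chosen after their Rmrp levels were seen. The labels number the male MO libraries 4 to 8 and the male controls 1, 12, 23, 34, 45 and 56, without saying what the number stands for. Of 15 hepatocyte markers only Cps1 was among the male rows, so the tissue label could be checked no further. Of 79 markers of other liver and blood cell types 9 were listed, all lower in MO males. Their summed level was 156.8 to 232.8 RPM in controls and 94.0 to 128.7 RPM in MO males. Their median log2 difference was -0.60, near the -0.58 of all listed rows, most of which were lower. Cps1 was lower as well, at -0.52. After centring the 9 markers lay between -0.13 (Eng) and 0.10 (Vwf), and Cps1 was at 0.07. No Kupffer cell, neutrophil, erythroid or pancreatic marker was listed. In whole tissue fewer cells of a type and less RNA per cell cannot be told apart, and the part of these markers in the levels below was not tested.

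The positive arm of the clock was represented by Npas2 on chromosome 9, whose mean was 15.5-fold lower in MO males. Control males ranged from 2.3 to 10.6 RPM with a median of 8.96 RPM. MO males 1 to 5 were at 0.271, 0.095, 0.265, 0.755 and 1.04 RPM. Every MO male lay below every control, and the controls themselves divided into 4 animals at 8.33 to 10.6 RPM and controls 2 and 6 at 2.3 and 3.93 RPM. In reads, which came out as whole numbers for this gene in all 11 libraries, this was 20 to 101 per control and 3, 1, 3, 8 and 12 in MO males 1 to 5. The 95% exact Poisson intervals, which cover counting error only, reached at most 1.81 RPM in an MO male (animal 5) and began at 1.40 RPM in control 2, the lowest control. The intervals of MO male 5 and of MO male 4, which reached 1.49 RPM, thus overlapped that of control 2, while those of MO males 1, 2 and 3, with upper limits of 0.791, 0.529 and 0.773 RPM, lay below the interval of every control. The means were 7.48 ± 3.51 RPM (SD, n = 6) and 0.484 ± 0.395 RPM (SD, n = 5). On the log2(RPM + 1) scale the difference was -2.41 ± 0.28 (SE), and -1.83 after centring. It was -2.21 without control males 1 and 5, and -2.82 with those alone as controls. Because the MO values lie near or under the added pseudocount of 1, this scale understates the change, and a pseudocount of 0.25 gave -3.38.

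The repressor arm was represented by Cry2 on chromosome 3, a cryptochrome that binds and silences the activating pair, and here the difference was small. Control males ranged from 30.8 to 60.7 RPM with a median of 48.2 RPM, and MO males 1 to 5 were at 33.6, 28.1, 40.0, 36.3 and 26.5 RPM. The groups overlapped, since control 5 at 30.8 RPM and control 1 at 38.1 RPM lay within the MO range. The means were 46.9 ± 11 RPM (SD, n = 6) and 32.9 ± 5.62 RPM (SD, n = 5). The difference was -0.48 ± 0.19 (SE) on the log2(RPM + 1) scale and 0.10 after centring. Centring moves all differences up by the same amount, so every lower row listed nearer to 0 than that shift changes sign, and Cry2 is one of these. Controls 1 and 5, the lowest in Cry2, are the 2 control libraries low in Rmrp. Without them the difference was -0.68, and against them alone it was -0.073. In the authors' deposited table Cry2 has a log2 size of 0.48, the smallest of the table and shared by 45 rows, with a p-value of 0.02977 where the largest listed is 0.04964. It thus sits at the edge of the selection, and rows beyond that edge are not analysed here. Unlike those of the other 4 genes, its values were whole multiples of a read in only 1 of 11 libraries, so no read counts are given for it.

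Among the output genes Wee1 on chromosome 1 was higher in MO males. Control males ranged from 1.5 to 6.78 RPM with a median of 3.50 RPM, and MO males 1 to 5 were at 11.5, 8.74, 10.5, 9.91 and 9.32 RPM. All MO males lay above every control and close to each other, whereas controls 1, 3 and 5 were at 1.5, 1.90 and 2.06 RPM and controls 2, 4 and 6 at 6.78, 4.94 and 5.31 RPM. In reads this was 15 to 59 per control and 92 to 128 per MO male. Means of 3.75 ± 2.21 RPM (SD, n = 6) and 10.0 ± 1.08 RPM (SD, n = 5) gave a 2.67-fold higher mean. The log2 difference was 1.34 ± 0.25 (SE), with 1.93 after centring, 1.02 without control males 1 and 5 and 1.99 with those alone as controls.

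Nampt on chromosome 6 had the deepest coverage of the output genes, with 364 to 705 reads per control and 1182 to 2621 per MO male. Control males ranged from 42.7 to 74.9 RPM with a median of 58.3 RPM. MO males 1 to 5 were at 164, 142, 231, 112 and 150.5 RPM. The lowest MO male, animal 4, was thus above the highest control, animal 6. The mean was 56.8 ± 11.5 RPM in controls (SD, n = 6) and 159.8 ± 44.3 RPM in MO males (SD, n = 5), 2.82-fold higher. The log2 difference of 1.46 ± 0.20 (SE) became 2.04 after centring, 1.39 without control males 1 and 5 and 1.6 with those alone as controls.

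On the log2(RPM + 1) scale Rgs16 on chromosome 13 had the largest positive difference of the 1365 rows and, of the 5 genes, the widest spread among MO males. Controls ranged from 0 to 3.40 RPM with a median of 1.45 RPM. The 0 in control 3 is a count of 0 reads, which allows up to 0.335 RPM at the depth of that library by a floor of 3 reads. The upper end of its two-sided 95% exact Poisson interval, the kind given for Npas2, is 0.412 RPM. MO males 1 to 5 were at 9.20, 28.6, 45, 10.5 and 51.6 RPM. All MO males lay above every control, yet they fell into animals 1 and 4 near 10 RPM and animals 2, 3 and 5 at 28.6 RPM or more. The counts behind these values were 102 to 598 reads per MO male and 0 to 32 per control. The mean was 1.72 ± 1.24 RPM in controls (SD, n = 6) and 29.0 ± 19.4 RPM in MO males (SD, n = 5), 16.8-fold higher. On the log2(RPM + 1) scale the difference was 3.30 ± 0.39 (SE), 3.89 after centring, 3.44 without control males 1 and 5 and 3.03 with those alone as controls.

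**Figure D1:**
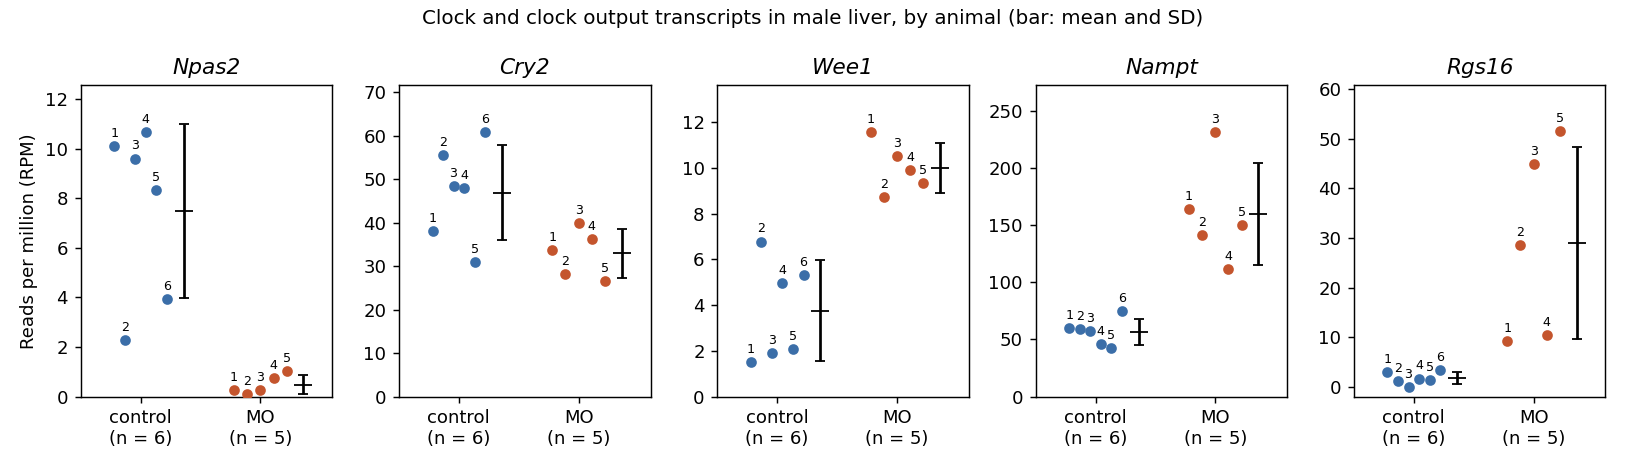
Level of each of the 5 genes in every male, in RPM on a linear axis with its own scale per gene (control n = 6, MO n = 5); points carry the animal's number and the bar beside each group is its mean and SD. Npas2 lies at 1.04 RPM or less in every MO male and at 2.3 RPM or more in every control, Wee1, Nampt and Rgs16 lie above every control in every MO male, and the Cry2 groups overlap.

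Groups that did not overlap were found for 4 of the 5 genes, all but Cry2. In the table as a whole this held for 30.6% of rows, split into 0.733% with every MO male above every control (10 rows, among them Wee1, Nampt and Rgs16) and 29.9% with every MO male below every control. By limma with Benjamini-Hochberg adjustment at 0.05, 100% of rows passed, 3.52% higher and 96.5% lower, which follows from the selection, and the 5 genes were among them by that same selection. After centring 5.27% passed, 48 rows higher (3.52%) and 24 lower (1.76%), in place of 48 and 1317. Ordered by the log2 difference, Rgs16 was the highest of 1365 rows, Nampt the 6th and Wee1 the 7th highest, and Npas2 the 5th lowest.

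**Figure D2:**
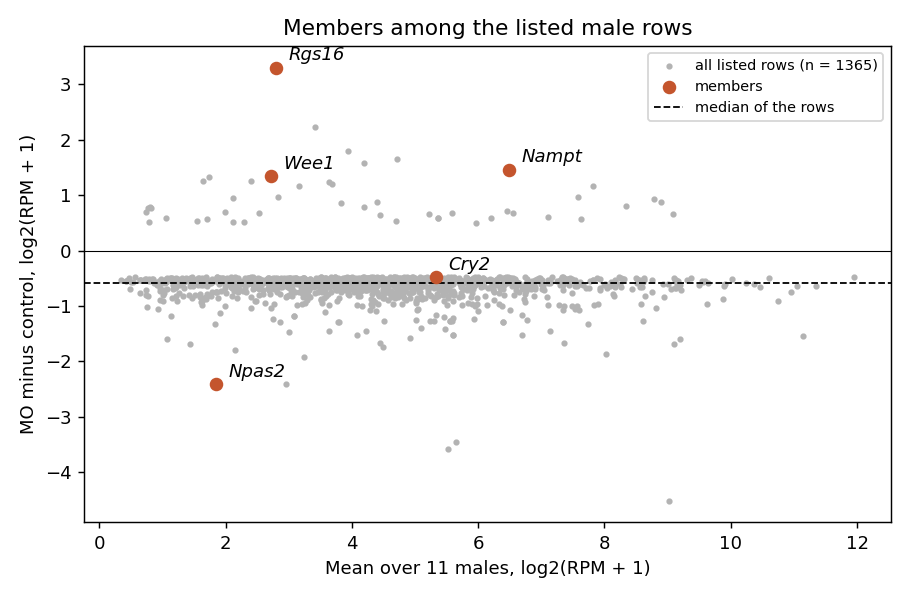
Difference between MO and control males on the log2(RPM + 1) scale against the mean level over 11 males, for the 1365 listed rows (grey) and the 5 genes (red); the dashed line is the median of the rows, -0.58. Rgs16, Nampt and Wee1 lie among the few higher rows, Npas2 far below the line and Cry2 just above it; no row lies between -0.48 and 0.48 because none was listed.

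A ratio of 2 genes within a library does not depend on how that library was scaled. Nampt per Npas2 was 4.33 to 25.6 in control males and 145.3 to 1494 in MO males. The ratio was highest in controls 2 and 6, the controls low in Npas2, and lowest in MO males 4 and 5. Wee1 per Npas2 was 0.149 to 2.95 in controls and 9 to 92 in MO males. The groups of Npas2, Wee1 and Nampt were already apart gene by gene and in opposite directions, so these ranges could not overlap, and the 1 to 12 Npas2 reads in MO males make the size of both ratios uncertain. Set against Cry2, the member that differed least, Nampt and Wee1 gave narrower ranges. Nampt per Cry2 was 0.962 to 1.58 in controls and 3.08 to 5.78 in MO males, and Wee1 per Cry2 was 0.0392 to 0.122 and 0.263 to 0.351. Npas2 per Cry2 was 0.0414 to 0.270 in controls and 0.00338 to 0.0390 in MO males. For each of the ratios to Cry2 the MO and control ranges were apart, narrowly so for Npas2, which is a description, since the genes were chosen by these differences. Rgs16 per Wee1 was 0 to 1.93 in controls and 0.797 to 5.54 in MO males, so these ranges overlapped. Rgs16 per Nampt was 0 to 0.0482 in controls and 0.0561 to 0.343 in MO males, narrowly apart. RPM is not corrected for transcript length, so these ratios compare animals and not the amounts of the genes.

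**Figure D3:**
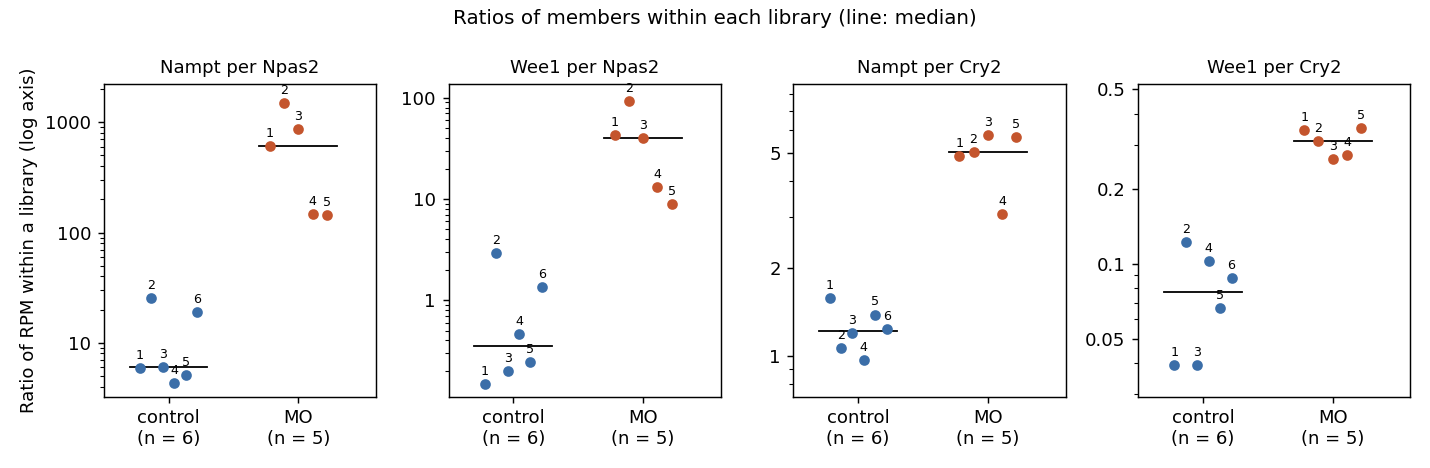
Ratio of RPM between pairs of the genes within each male library, on log axes (control n = 6, MO n = 5; numbers are animals, lines are medians). In all 4 ratios shown the lowest MO male lies above the highest control, for Nampt per Cry2 at 3.08 against 1.58. Ratios with Rgs16 are not shown, and Rgs16 per Wee1 overlapped between the groups.

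The animals of a group also differed from each other, and how 2 genes varied together among them was not used to select the rows, although the spread of each gene by itself enters a listed p-value. Controls 2 and 6 combined the lowest Npas2 (2.3 and 3.93 RPM) with the highest Cry2 (55.4 and 60.7 RPM) and with high Wee1 (6.78 and 5.31 RPM). Controls 1, 3 and 5 had high Npas2 (10.1, 9.60 and 8.33 RPM) and the lowest Wee1. Control 4 broke this order, with the highest Npas2 (10.6 RPM) and a Wee1 level of 4.94 RPM. In Npas2 and Wee1 the 6 controls thus fell into separate sets, of 2 and 4 animals and of 3 and 3, with the widest gap taking 50.5% and 58.5% of the range on the log2 scale. No correlation coefficient is given for the 7 pairs that include either gene. The limit was a gap of 50% of the range with at least 2 animals on each side. It was chosen after the values were seen, and Npas2 was just past it. By the exact permutation test of r used below, none of the 7 pairs had an adjusted p under 0.05. The lowest was 0.384 for the values as deposited. Cry2 with Wee1 kept a positive r under every alternative. Its unadjusted permutation p was 0.0375 after centring (adjusted 0.375). For within-group deviations over 11 males it was 0.0499 (adjusted 0.305). Over the 4 controls other than 2 and 6, r was positive for Npas2 with Wee1 and with Cry2. These 4 lay between 8.33 and 10.6 RPM in Npas2, with overlapping 95% exact Poisson intervals. The sign of r among them can therefore not be told from counting error. For both pairs r stayed negative when any single control was left out. The opposite order described above thus rests on controls 2 and 6. In Rgs16 the widest gap took 51.6% of the range but set apart control 3 alone, so its pairs with Cry2 and Nampt were kept.

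The remaining 3 of 10 pairs were compared over the 6 controls, with p-values from two-sided exact permutation tests and Benjamini-Hochberg adjustment over the 10 pairs. These tests treat the animals as exchangeable. The labels do not say how the animals relate by litter, so shared litters are not accounted for in the p-values. Cry2 and Nampt had a Pearson r of 0.71 (exact permutation p = 0.115, adjusted 0.384; n = 6) and a Spearman rho of 0.66 (exact permutation p = 0.175, adjusted 0.583). Without the 2 animals farthest from the median of Cry2, r was 0.87. Cry2 and Rgs16 had an r of 0.06 (exact permutation p = 0.9, adjusted 0.9; n = 6) and a rho of 0.09 (exact permutation p = 0.919, adjusted 1), and r was 0.70 without the 2 farthest animals. Nampt and Rgs16 had an r of 0.33 (exact permutation p = 0.510, adjusted 0.785; n = 6) and a rho of 0.54 (exact permutation p = 0.297, adjusted 0.594), and r was -0.10 without the 2 farthest animals. None of the 3 pairs passed or had an unadjusted p under 0.05. Of these 3, only the relation of Cry2 and Nampt kept its direction under every alternative. Among the pairs set aside above, that of Cry2 and Wee1 did so as well. Control 6 was the highest in Cry2, Nampt and Rgs16 alike, and without it r was 0.53, -0.34 and -0.09 for the 3 pairs. Its library also had the highest median over the listed rows, 4.92 on the log2(RPM + 1) scale against 4.29 to 4.58 in the other controls. With 5 MO males no correlation was computed. Among them animal 3 had the highest Nampt (231 RPM) and Cry2 (40.0 RPM), animal 5 the highest Rgs16 (51.6 RPM) and Npas2 (1.04 RPM) with the lowest Cry2 (26.5 RPM), and animal 4 had the lowest Nampt (112 RPM).

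**Figure D4:**
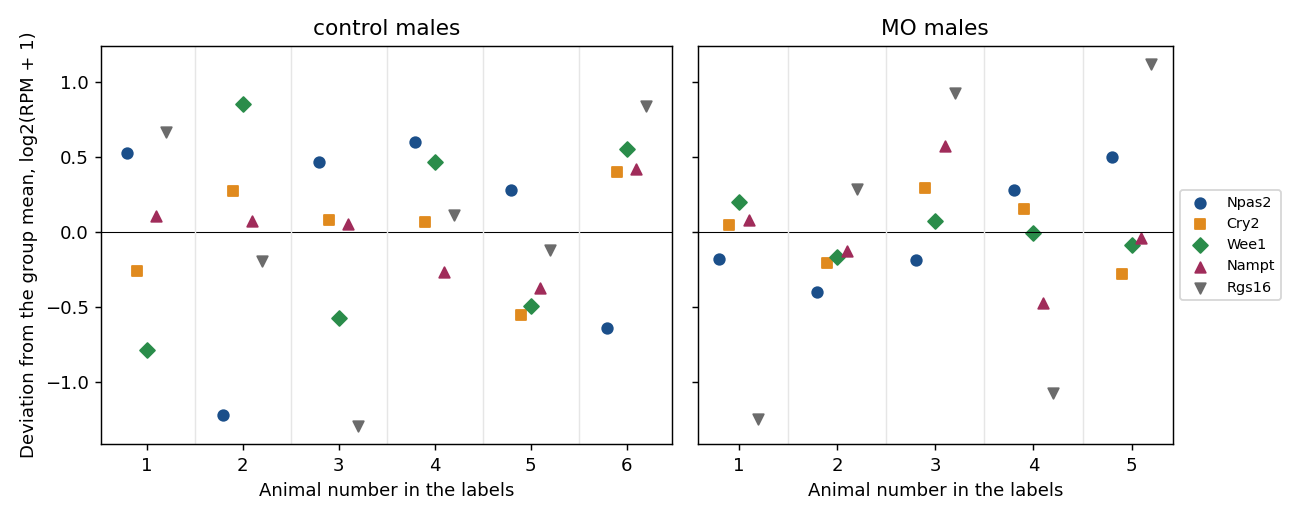
Deviation of each gene from the mean of its own group, on the log2(RPM + 1) scale, for each control male (left) and MO male (right). Npas2 and Wee1 lie on opposite sides of 0 in controls 1, 2, 3, 5 and 6 and on the same side in control 4; among MO males Rgs16 has the widest spread.

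The other genes of the male table were ranked by how their deviations from the group means followed those of each member over the 11 males, among 1243 genes with a mean of at least 1 RPM and a current symbol. The 2 highest and 2 lowest were taken for each member, and all but 1 of those for Wee1 are named. They are extremes of a ranking and carry no test, and for Npas2 and Wee1 the r partly reads the sets of controls described above. Npas2 was followed most closely by Slc19a2, a thiamine transporter (r = 0.78), and Maged2 (0.72), and most inversely by Dnase2b (-0.86) and Laptm4b (-0.76), where the median of the 1243 genes was -0.10. Cry2 had the highest r with Faah, which breaks down fatty acid amides (0.93), and Tle2, a transcriptional corepressor (0.91), against a median of 0.38. Its lowest were Acmsd (-0.74) and Ptprn (-0.57). Wee1 was nearest to Nat8 (0.93) and farthest from Plekhg2 (-0.74) and Ei24 (-0.69), with a median of 0.04. For Nampt the nearest were Tpm1, a tropomyosin (0.94), and Abca1, the cholesterol exporter (0.92), and the farthest Oat (-0.74) and Bhmt (-0.68), with a median of 0.30. For Rgs16 they were Lyrm9 (0.77) and Lrp5, a Wnt co-receptor (0.66), and at the other end Angptl4, an inhibitor of lipoprotein lipase (-0.81), and Fxyd6 (-0.79), with a median of -0.08. With medians of 0.38 and 0.30, the deviations of Cry2 and Nampt ran with those of most listed genes. After centring, all 20 genes kept the sign of r and 15 of 20 had an r above 0.5 in size. The rest were among the lowest genes and weakened. Ptprn with Cry2 went to -0.075 and Acmsd with Cry2 to -0.46. Plekhg2 with Wee1 went to -0.499, and Angptl4 and Fxyd6 with Rgs16 to -0.435 and -0.426.

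No other gene of the clock lists was in the male table. Of 47 genes in the lists of activators, repressors, clock kinases, ligases and cofactors, and PAR bZIP output factors, 2 were listed, Npas2 and Cry2. Genes that were not listed, such as Bmal1, the Per genes, Nr1d1 and Dbp, are not analysed here, and their absence from a selected table says nothing of their level. Of 24 genes of entry into mitosis, Wee1 was the only one listed.

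Of a list of 45 genes described as rhythmic in liver, 10 were in the table, and 7 of these were other than Wee1, Nampt and Rgs16. Of the 7, 4 were higher and 3 lower in MO males, with a median log2 difference of 0.59 where that of the 1365 rows was -0.58. All 7 lie in a table in which every row passed, so the count describes the list and tests nothing. Myc, the growth regulator, was at 8.16 ± 4.46 RPM (SD, n = 6) in controls and 19.4 ± 5.62 RPM (SD, n = 5) in MO males (1.23 on the log2 scale). Tsku, a secreted protein made by liver, was at 175.6 ± 89.5 RPM in controls (SD, n = 6) and 367 ± 115 RPM in MO males (SD, n = 5). Lonrf3 and Tspan4 were higher by 0.95 and 0.59 on the log2 scale. In all 4 the groups overlapped. Avpr1a, the hepatic vasopressin receptor, was lower, with 60.4 to 90.4 RPM in controls and 24.7, 22.0, 36.8, 30.1 and 39.2 RPM in MO males 1 to 5, so that the groups were apart. Ppp1r3c, which directs phosphatase to glycogen, was at 81.7 ± 29.3 RPM in controls (SD, n = 6) and 28.8 ± 14 RPM in MO males (SD, n = 5), also with the groups apart. Cirbp, the cold-inducible RNA-binding protein, differed by -0.70 with overlapping groups and by -0.11 after centring.

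Around Nampt, the list of NAD synthesis and use had 10 of 35 genes in the table. Apart from Nampt, 8 of the 9 were lower in MO males and 1 was higher, with a median of -0.59, near that of all rows. NAD is made in liver from tryptophan, from nicotinic acid and, through Nampt, from nicotinamide. The tryptophan route gave Tdo2, its first enzyme (1170 ± 505 to 570.4 ± 179.0 RPM; SD, n = 6 and 5), Kynu (243 ± 105 to 82.9 ± 22.2 RPM; SD, n = 6 and 5), Haao (-0.59 on the log2 scale) and Qprt (-0.48), all lower. Acmsd, which diverts this route away from NAD, was lower as well, at 3.21 ± 1.16 RPM in controls (SD, n = 6) and 1.28 ± 0.444 RPM in MO males (SD, n = 5), with the groups apart. Afmid, which acts after Tdo2, was the exception, at 171 ± 53.3 RPM in controls (SD, n = 6) and 245.9 ± 22.2 RPM in MO males (SD, n = 5), with overlapping groups. Naprt (listed as Naprt1), of the nicotinic acid route, was at -0.53, and Nmnat1 and Nadsyn1, which complete NAD, were at -0.59 and -0.54. After centring, Haao and Nmnat1 were at -0.01, Qprt at 0.10, Naprt1 at 0.05 and Nadsyn1 at 0.05, the last 3 changing sign because they were listed nearer to 0 than the common shift. Kynu was then at -0.86, Tdo2 at -0.38, Acmsd at -0.28 and Afmid at 1.15. Nampt was thus the listed NAD gene with the largest positive difference on either scale.

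The list of RGS proteins and heterotrimeric G proteins had 4 of 39 genes in the table. Besides Rgs16 these were Rgs12 (-0.67 on the log2 scale), the G protein subunits Gna12 (-0.70) and Gng10 (-0.48), all lower, with overlapping groups. After centring they were at -0.08, -0.12 and 0.10, the last again listed nearer to 0 than the shift.

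Without control males 1 and 5, all 19 of these listed genes other than the 5 members kept the sign of their difference, and so did all 19 with those alone as controls. Leaving them out moved 2 differences by more than 1.5 times, Lonrf3 to 0.61 and Tspan4 to 0.38. Using them alone moved 5, Lonrf3 to 1.62, Tspan4 to 1.02, Tsku to 0.61, Nadsyn1 to -0.36 and Rgs12 to -0.32.

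**Figure D5:**
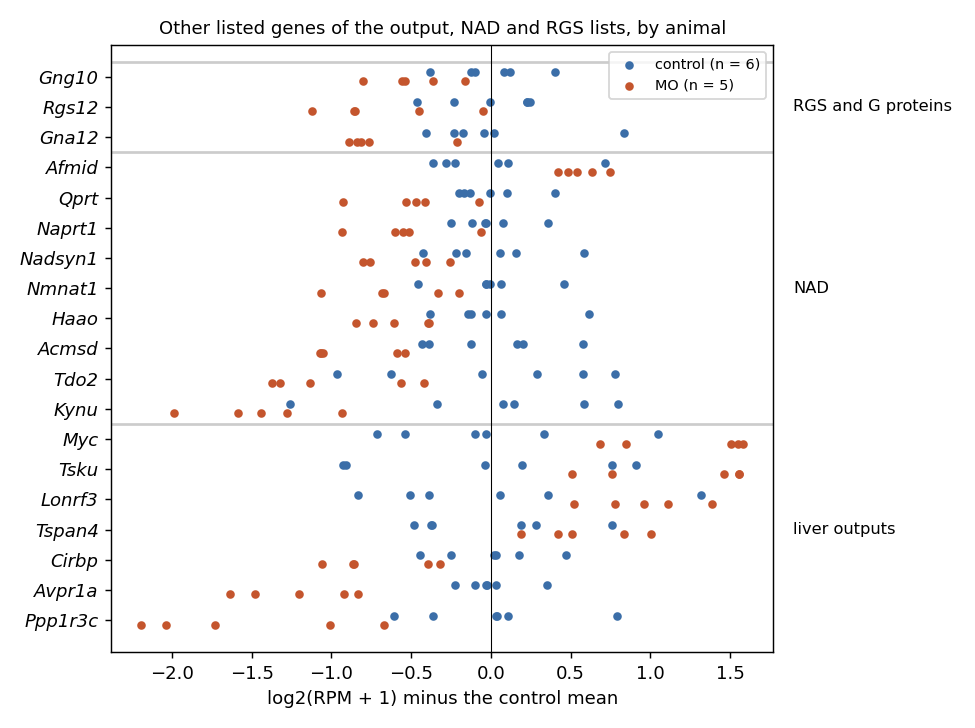
Level of the other listed genes of the liver output, NAD and RGS lists in each male, as log2(RPM + 1) minus the control mean (blue, control, n = 6; red, MO, n = 5). The NAD genes other than Afmid lie to the left in MO males, and of the liver output genes Myc, Tsku, Lonrf3 and Tspan4 lie to the right.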

How the data were processed

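Liver RNA (10 to 20 mg of tissue, 1 µg of total RNA per library, TruSeq, per the labels' protocols) was sequenced. STAR 2.3.1j, Partek and the build rn5 appear in the submitters' processing notes without their roles, and no counting rule is stated there. The values deposited by the authors are RPM with 1 added, inferred from the values: the lowest is exactly 1, and after subtraction 79.5% of male rows were whole multiples of 1 read (within 0.02) in all 11 libraries. This fell short of the table as a whole, so no count test was run. The deposited fold column is the size of a log2 difference, recovered for 1365 of 1365 male rows, and the deposited p-values are the authors' own. Males alone were fitted with limma 3.58.1 (trend, R 4.3.3) on log2(RPM + 1), pseudocount 1, no filter, Benjamini-Hochberg over 1365 rows; the fit was tested on simulated data. Same-numbered animals were not paired by the labels.

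The genes, the lists and the tests were chosen with earlier results of these data known. Named genes were the 5 members, every listed gene of the pathway lists (clock activators, repressors and cofactors, PAR bZIP factors, rhythmic liver outputs, NAD, mitosis entry, RGS and G proteins), and the 2 highest and 2 lowest genes by likeness to each member, 1 row per gene, apart from genes not reported here. Alternatives were other pseudocounts (0.25 and 4), a filter at 1 RPM, centring, the replicate block, leaving out each animal and an exact permutation test. Names were updated from RefSeq (GRCr8), which matched 1357 of 1365 male rows.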

Additional observations from a re-analysis of the deposited data

Results flagged for a closer look

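The named genes gave 92 groups of 5 or 6 animals, in which the highest and the lowest animal were compared with the rest on the log2(RPM + 1) scale by the gap to the nearest animal as a share of the range (Dixon's 95% limit). Chance marks about 1 in 20 groups, and 4 marks were found, none of them in Npas2, Cry2, Wee1, Nampt or Rgs16. Gna12 was marked in both groups, with control male 6 at 293.9 RPM against 123.5 to 166.7 RPM in the other controls and MO male 3 at 141.6 RPM against 88.3 to 96.3 RPM. Oat stood out in control male 5 at 510.9 RPM, the other controls being at 199.8 to 268.2 RPM. Dnase2b was lowest in MO male 5 at 3.02 RPM, with 4.78 to 5.47 RPM in the other MO males.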

How the results depend on the processing

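The sign of the difference was kept by Npas2, Wee1, Nampt and Rgs16 under every alternative run, and by Cry2 under all but centring (0.10 in place of -0.48). Centring left 72 of 1365 rows past the threshold and moved Wee1 to 1.93 and Nampt to 2.04. A pseudocount of 0.25 moved Npas2 to -3.38, and one of 4 moved it to -1.29 and Rgs16 to 2.31. With control males 1 and 5 alone as controls, 531 rows passed, Cry2 was at -0.073 and Wee1 at 1.99; fewer samples entered that fit. The exact permutation test passed 1336 rows. Leaving out each animal gave 1282 (without MO male 5) to 1364 rows, -2.66 to -2.29 for Npas2, -0.59 to -0.40 for Cry2, 1.19 to 1.51 for Wee1, 1.32 to 1.58 for Nampt and 3.02 to 3.62 for Rgs16. Cry2 no longer passed without MO male 2 (-0.43) or MO male 5 (-0.41), after centring, or with control males 1 and 5 alone. All rows were selected on this same contrast. Whether Cry2 or any other row passed is therefore a description of the settings and supports no difference. The r over controls ranged over 0.42 to 0.85 for Cry2 with Nampt, -0.34 to 0.28 for Cry2 with Rgs16 and -0.095 to 0.73 for Nampt with Rgs16. Cry2 with Rgs16 was at -0.080 after centring and -0.096 for within-group deviations over 11 males. With the replicate number as a block, in which control 6 has no partner and so drops out of the difference, 1344 rows passed and the differences were -2.54 for Npas2, -0.40 for Cry2, 1.45 for Wee1, 1.54 for Nampt and 3.47 for Rgs16. The labels do not pair same-numbered animals. Their deviations correlated at -0.10 to 0.15 over rows, and a control correlated best with its own number in 1 of 5 cases. Such correlations over selected rows cannot show whether a litter or a handling step was shared. The cause of the shifts under these alternatives was not tested. Depth limits Npas2 in MO males, with 1 to 12 reads, and Rgs16 in controls, with 0 to 32.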

Other observations

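In the female table, where none of the 5 genes was listed, genes of the same pathway lists were, among them Nmrk1 and Sgk1. Nmrk1, the kinase that feeds nicotinamide riboside into NAD, was at 5.86 ± 3.11 RPM (SD, n = 6) in control females and 13.9 ± 9.72 RPM (SD, n = 5) in MO females, with overlapping groups. Sgk1, a kinase induced by glucocorticoids, was at 4.02 ± 2.18 RPM (SD, n = 6) in control females and 7.29 ± 2.53 RPM (SD, n = 5) in MO females. The Sgk1 groups overlapped as well. These rows had been selected for a difference, and neither a test of it nor a comparison of the sexes was made.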
